A study of Mus musculus with 18 samples.

Results

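The control arm of a study of household laundry detergents on mouse skin consisted of 6 whole-skin RNA-seq libraries, out of 18 libraries in the series. The 6 were taken by their label: skin of C57BL/6 mice, 8 to 12 weeks old, treated with phosphate-buffered saline (PBS). The remaining libraries are 6 of detergent A and 6 of detergent B, from mice of the same strain and age, and were not analysed here. The labels give no body site, sex, dose, duration, cage or date, and they do not say that each library is a separate animal, so the spread between libraries may in part be technical. With 1 group there is no comparison between treatments. The questions were which genes and gene families made up the transcriptome of control skin, and which genes differed most from one control library to the next.

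Whole mouse skin holds a stratified epidermis, a collagen-rich dermis, hair follicles, sebaceous glands, a fat layer and a thin sheet of skeletal muscle, the panniculus carnosus. Basal keratinocytes make keratins 5 and 14, and cells that leave the basal layer switch to keratins 1 and 10 before they build the cornified envelope. Hair follicles cycle between growth (anagen), regression (catagen) and rest (telogen). The inner root sheath, the hair shaft and pigment-making melanocytes are built up in the growing follicle and dismantled after it, and in young mice the cycle runs as waves that can differ between neighbouring patches of skin. In bulk RNA, fewer cells of a type and less RNA per cell cannot be told apart.

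The libraries held between 18132226 and 29599018 assigned counts, and 15313 genes had a mean of at least 1 CPM (counts per 1000000, with libraries scaled by the trimmed mean of M values, TMM). Replicate 6 stood apart. Its log2 CPM correlated with those of the other libraries, across genes, at r between 0.967 and 0.977, against 0.992 to 0.995 among replicates 1 to 5. Genes are not independent replicates, so these r values only describe likeness. On the first principal component, which carried 64.9% of the variance, replicate 6 sat at 69.9 and the other 5 libraries between -21.7 and -3.59. The common biological coefficient of variation was 19.5% with replicate 6 and 12.2% without it. Counts and score ranges of the lists that differ most are therefore also given without this library, where 1.08% of the tested genes differed at least 4-fold, against 3.72% with it.

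Counts were spread over many genes. The 10 most counted genes of a library held 5.11% ± 0.588 of its counts (SD, n = 6), the top 100 held 17.4% ± 1.13 and the top 1000 held 45.2% ± 1.33. It took 1300 ± 86.3 genes to reach 50% of the counts. Protein-coding genes took 98.3% and long non-coding RNA genes 1.27% of the counts.

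Per kilobase of exon, where levels can be compared between genes, the highest transcripts were mitochondrial and epidermal. The mitochondrial mt-Co1, a subunit of cytochrome c oxidase, stood at 5644 ± 624 CPM per kilobase (SD, n = 6), followed by mt-Cytb at 4281 ± 438 and mt-Nd1 at 3488 ± 423. The suprabasal keratin Krt10 came next at 3381 ± 1062, with the basal keratins Krt14 at 2866 ± 623 and Krt5 at 2501 ± 435. Neighbours in this order had overlapping ranges: the values of Krt10, Krt14 and Krt5 overlapped among libraries, as those of mt-Nd1 and Krt10 did. All were measured in the same libraries, and whether the order held within each library was not tested.

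After the ribosomal protein gene Rplp1 (2332 ± 161 CPM per kilobase), the order held a run of small keratinocyte transcripts. Krtdap, a secreted peptide of differentiating keratinocytes, stood at 2318 ± 708, the calmodulin-like Calm4 at 1946 ± 461, the galectin Lgals7 at 1628 ± 346 and the secreted Dmkn at 1580 ± 408. The skeletal muscle actin Acta1 reached 1550 ± 392, within the same range. Tmem147os at 1498 ± 352 closed the first 15, but it is annotated antisense to another gene and the strand setting of the counting is not given in the sources used here, so its reads cannot be assigned to either strand.

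**Figure D1:**
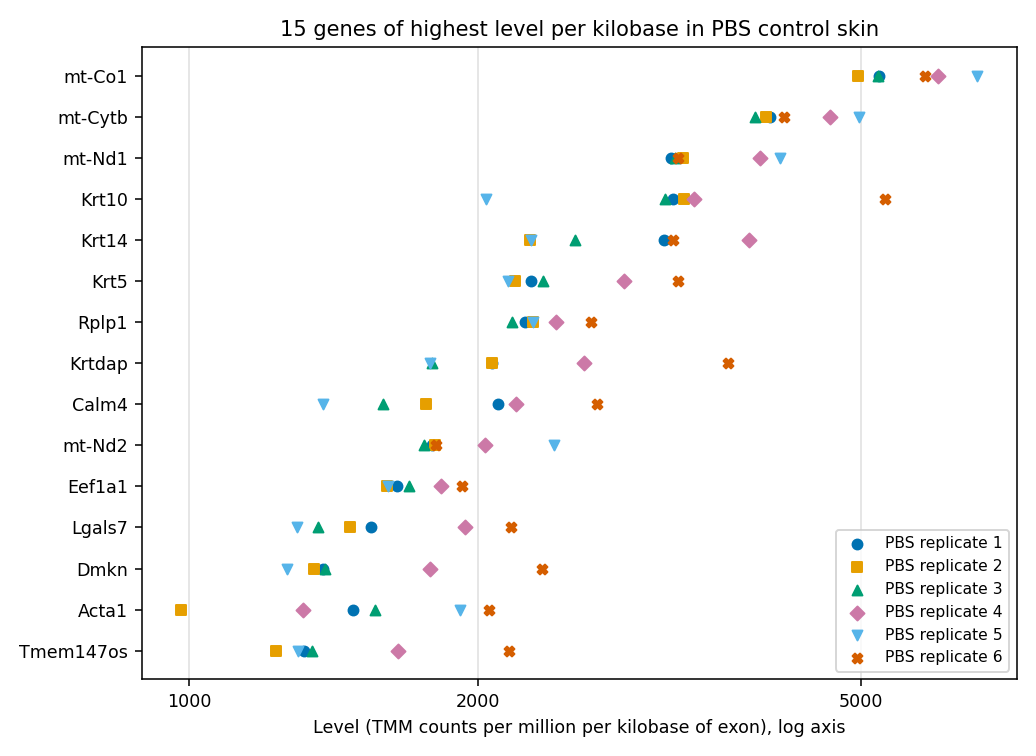
Level of the 15 genes with the highest mean per kilobase of exon in each of the 6 PBS libraries (x axis: TMM-scaled CPM per kilobase, log axis; each symbol is 1 library). Replicate 6 has the highest Krt10 and Krtdap, replicate 5 the lowest Krt10, and replicate 5 the highest mt-Co1.

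By share of counts without a length correction, mt-Co1 led with 0.872% of all counts, then Krt10 with 0.711%, Krt5 with 0.548%, Krt14 with 0.502% and mt-Cytb with 0.490%. Krt1 (0.474%), the translation elongation factor gene Eef1a1 (0.428%), Krt77 (0.353%), Dmkn (0.345%) and mt-Nd1 (0.334%) completed the first 10. Krt10, on chromosome 11 at chr11:99385254-99389364 (GRCm38, minus strand), had 6736, 6914, 6619, 7085, 4304 and 11220 CPM in replicates 1 to 6. It was high in replicate 6 and low in replicate 5, and the other 4 libraries lay together between 6619 and 7085. Krt77, a suprabasal keratin of the type II cluster, ran from 1569 in replicate 1 to 6457 CPM in replicate 6, with 3029 to 3634 in the rest.

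Gene families were then summed. The 79 cytosolic ribosomal protein genes took 3.90% ± 0.186 of the counts (SD, n = 6) and the 53 keratins 3.79% ± 0.439. The 10 suprabasal markers took 2.63% ± 0.626, lowest in replicate 5 at 1.91% and highest in replicate 6 at 3.78%. The 10 basal markers took 1.45% ± 0.229. The 12 cornified envelope genes, which encode the cross-linked proteins of the outermost layer and the enzymes that process them, took 0.740% ± 0.132.

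Within the cornified envelope list, the filaggrin-processing protease gene Asprv1 averaged 1859 CPM, the desquamation protease Klk7 1105 and filaggrin-2 (Flg2) 818. Asprv1 lay between 1542 and 2624 CPM in all 6 libraries. Krt2, a suprabasal keratin known from ear, tail and footsole epidermis, was low, at 0.983 to 11.6 CPM. Of 14 lipid barrier genes, among them the ceramide synthase Cers3, the elongase Elovl4 and the lipid transporter Abca12, 0 differed 4-fold or more between libraries, beside 3.72% of all genes. Their median highest-to-lowest ratio was 1.56, against 1.43 over all genes.

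Dermal and deep-layer genes had smaller shares. The 44 collagens took 1.17% ± 0.222 of the counts, led by Col3a1, Col1a2 and Col1a1, which encode the fibrillar chains of the dermis, at means of 2439, 2170 and 1751 CPM. The 18 skeletal muscle genes took 1.17% ± 0.274, lowest in replicate 2 at 0.826% and highest in replicate 5 at 1.59%. All 18 were above 1 CPM, including the fast myosin Myh1 at 892 to 2634 CPM. The sebaceous markers took 0.427% ± 0.0604, led by Scd1, a fatty acid desaturase, at 2564 to 3613 CPM.

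Markers of immune and other cells were detected at low levels. Macrophage genes took 0.117% of the counts, with Lyz2, which encodes lysozyme, at 171 to 553 CPM. The T cell marker Cd3e had 3.44 to 7.90 CPM, and 2 of 8 B and plasma cell genes passed 1 CPM. Lists for tissues outside the skin gave mixed levels. Of the mammary gland list 0 of 7 genes and of the liver list 2 of 7 passed 1 CPM. Of the brown fat list 4 of 6 passed, and the list summed to 125 to 176 CPM, most of it from Cidea and Cox8b, while the defining gene Ucp1 averaged 0.0616 CPM. Of the cartilage list 3 of 9 passed, and it summed to 24.0 to 33.2 CPM in replicates 1 to 5, most of it from the proteoglycan gene Acan, and to less in replicate 6 (Acan at 1.20 CPM), while the cartilage collagen Col2a1 averaged 0.524 CPM. The red blood cell genes summed to 19.0 to 89.6 CPM.

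A limit of the counting showed in the mitochondrial genome. Of its 13 protein genes, 7 passed 1 CPM. The other 6, mt-Co2, mt-Co3, mt-Atp6, mt-Atp8, mt-Nd3 and mt-Nd4l, were at or near 0 in every library (mt-Atp6 reached 1.08 CPM in replicate 4 alone, which lifts the list score there), and the cause is not given in the sources used here. The mitochondrial share of 2.29% ± 0.255 therefore covers only the counted genes. It was highest in replicate 5 at 2.74%.

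Of the 15313 genes, 569 (3.72%) differed at least 4-fold between their highest and lowest library, measured on CPM with a prior count of 2, and are called variable here. A further 5283 (34.5%) stayed under 1.3-fold and are called steady. The median gene differed 1.43-fold, the 95th percentile was 3.38-fold, and 179 genes differed 10-fold or more. By level, 9.03% of genes at 1 to 10 CPM were variable, 1.79% of those at 10 to 100 CPM, 1.23% of those at 100 to 1000 CPM and 5.88% of the 68 genes over 1000 CPM. Of the 569 genes, 166 stayed at least 4-fold without replicate 6, and between 466 and 556 did without any 1 of the other libraries. Replicate 6 was the lowest library for 364 of the 569 genes and the highest for 145, while replicate 1 was the highest for 202. In 99 genes the difference stayed at least 4-fold whichever library was left out.

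**Figure D2:**
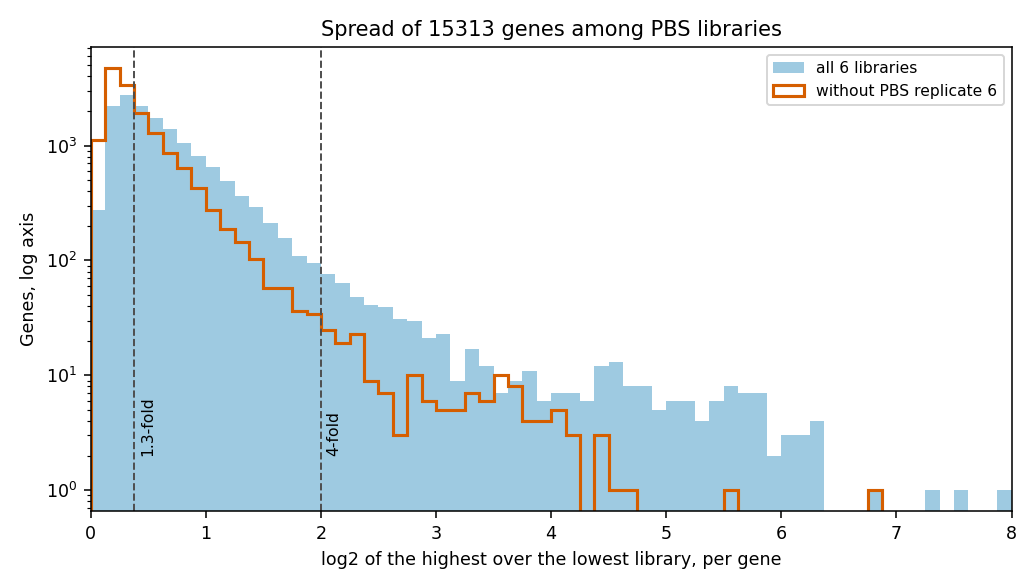
Number of genes (y axis, log) by the log2 ratio of the highest to the lowest PBS library (x axis), over all 6 libraries (filled) and without replicate 6 (line), for the 15313 genes of at least 1 CPM. Dashed lines mark 1.3-fold and 4-fold. Without replicate 6 the number at or beyond 4-fold went from 569 to 166.

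Among the gene lists, the 3 hair lists named next had the largest shares of variable genes. They held 47 of the 569, so most variable genes lay outside them. With hair genes left out, the first principal component carried 64.2% of the variance, against 64.9% with them. Of the 49 tested genes in the hair shaft keratin, keratin-associated protein and inner root sheath lists, 47 were variable, beside 3.72% of all genes. Without replicate 6, 36 of the 49 were, beside 1.08%. Of these 36, 24 were keratin-associated proteins, 9 hair shaft keratins and 3 inner root sheath genes. Keratin-associated proteins carried past the filter on the mean by replicate 1 alone had to differ. The pooled counts are therefore a description. All 10 inner root sheath genes were variable, with a median highest-to-lowest ratio of 47.4 against 1.43 over all genes. Their summed CPM in replicates 1 to 6 was 9368, 7041, 6591, 4872, 6365 and 214. Replicate 6 was far below the other 5, which spanned less than 2-fold. Without it 3 of the 10 genes were variable, and the mean log2 score of the list spanned 1.58 instead of 5.37.

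Krt71, a type II keratin of the inner root sheath at chr15:101733949-101743109 (GRCm38, minus strand), had 2953, 2336, 2150, 1661, 2081 and 62.1 CPM in replicates 1 to 6. The ratio of highest to lowest was 47.4, and 1.78 without replicate 6. Krt25, a type I partner keratin, had 1988, 1611, 1545, 1203, 1536 and 40.4 CPM. Krt73 had 507, 428, 369, 360, 438 and 9.28 CPM. In all 3 keratins replicates 1 to 5 lay together, with replicate 6 alone low. Trichohyalin (Tchh), a matrix protein of the sheath, ran from 869 to 2235 CPM in replicates 1 to 5 and was at 61.7 CPM in replicate 6.

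The promoters of these keratins are shown because the share of genes with the letters TATAAA before the start differed between variable and steady genes. These are the letters of a TATA box, a core promoter element, but function was not tested. The 4 inner root sheath promoters shown all have them, as did 6 of the 10 genes of that list. Each line gives the 100 bases before the RefSeq start of the gene (GRCm38.p6), 5′ to 3′ on the gene's strand, which is minus for all 6. Capitals mark the letters TATAAA. The first 4 genes are inner root sheath keratins at chr11:99322952-99323051, chr11:99351119-99351218, chr15:101743098-101743197 and chr15:101802361-101802460. The last 2 are the epidermal keratins Krt10 (chr11:99389365-99389464) and Krt5 (chr15:101712906-101713005), which were among the highest transcripts and far less variable, and Krt5 has no TATAAA in this window.
Krt25: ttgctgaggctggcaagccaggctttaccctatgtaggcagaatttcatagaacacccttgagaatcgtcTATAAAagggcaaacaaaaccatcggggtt
Krt27: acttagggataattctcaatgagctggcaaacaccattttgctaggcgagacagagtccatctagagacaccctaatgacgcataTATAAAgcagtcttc
Krt71: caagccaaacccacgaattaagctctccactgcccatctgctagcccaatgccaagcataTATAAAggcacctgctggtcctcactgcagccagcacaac
Krt73: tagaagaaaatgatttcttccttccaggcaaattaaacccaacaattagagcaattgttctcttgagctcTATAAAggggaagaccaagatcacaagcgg
Krt10: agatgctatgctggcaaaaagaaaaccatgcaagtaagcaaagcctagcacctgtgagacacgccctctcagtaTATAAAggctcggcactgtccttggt
Krt5: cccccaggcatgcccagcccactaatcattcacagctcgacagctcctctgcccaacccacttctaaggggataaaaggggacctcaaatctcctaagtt

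TATAAA on the gene's own strand within the last 50 bases before the start was found in 61 of the 400 variable genes with a promoter sequence (15.3%). The share was 2.63% of the 11379 tested genes with a sequence and also of all 32851 promoters in the table, and 36 of 4184 steady genes (0.860%) had it. Among the families it was present in 15 of 20 keratin-associated protein genes, 6 of 10 inner root sheath genes and 5 of 8 hair shaft keratins. Of 6 melanocyte genes, 0 had it, although most of that list was variable. Over the whole window of 250 bases before to 50 after the start, with TATAAA or its reverse complement TTTATA on either strand, the shares were 25.5% for variable and 6.98% for steady genes, beside 9.85% of the tested genes and 13.6% of all promoters. Of the 117 genes with a sequence that differed at least 4-fold without replicate 6, 40 (34.2%) had TATAAA within the last 50 bases. The hair shaft keratin, keratin-associated protein and inner root sheath lists held 36 of the 166 genes that differed 4-fold without that library. The shares of variable genes therefore include these related genes, and the share outside them was not tested. The motif was chosen after the values were seen, and a match describes letters only.

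Hair shaft keratins, which form the cortex and cuticle of the hair, were variable in 12 of 14 tested members, beside 3.72% of all genes. The largest contributor was Krt35, at 249, 230, 198, 184, 226 and 6.53 CPM in replicates 1 to 6, so replicate 6 was again alone. Others also separated replicate 1 from the rest. Krt31 had 45.3, 17.6, 12.1, 5.85, 9.09 and 0.859 CPM, and Krt83 had 8.63 to 40.6 CPM in replicates 1 to 5 and 0.630 in replicate 6. Replicate 1 was the highest library in all 14 tested members and replicate 6 the lowest in 13. Over the 14164 tested protein-coding genes these counts were 2124 and 5480. Krt31 with its neighbours Krt33a, Krt33b and Krt34, and Krt81 with Krt83 and Krt86, are close paralogs, so counts of the single genes are uncertain. The score of the list spanned 4.40 on the log2 scale, and 2.25 without replicate 6. Without it 9 of the 14 were variable, beside 1.08% of all genes.

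The keratin-associated proteins, which cross-link keratins in the shaft, were low. Of 57 genes, 25 passed 1 CPM and 9 had no count in any library. All 25 were variable, beside 3.72% of all genes, with a median ratio of 36.9. Without replicate 6, 24 were variable, beside 1.08% of all genes. Their filter was on the mean over libraries, so genes carried past it by replicate 1 alone had to differ, and the count is a description. Krtap11-1 had 42.2, 12.8, 8.96, 3.77, 4.81 and 0.458 CPM, and Krtap8-1 had 45.6, 12.9, 8.23, 2.07, 6.93 and 0.515. Replicate 1 was highest and replicate 6 lowest in both. The whole list summed to 312 CPM in replicate 1 and to between 18.6 and 86.2 in the other libraries. Krtap3-2 went the other way, highest in replicate 6 at 12.7 CPM against 2.90 to 7.89.

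Replicate 1 was at least 4-fold above every other library in 12 genes, 9 of them keratin-associated proteins. Replicate 6 was at least 4-fold below every other library in 170 genes and above every other in 7. Tchhl1, a trichohyalin-like gene, was one of the 12 at 53.7 CPM in replicate 1 against 3.15 to 13.3. The genes high in replicate 6 included the secreted angiopoietin-like Angptl7, at 55.2 CPM against 1.91 to 4.02, and the growth factor Fgf18, at 5.96 CPM against 0.124 to 0.956. Wfdc3, Sectm1b and Chat were also among them. These were picked after their values were seen.

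Regulators of follicle growth moved with replicate 6. Of 10, 7 were variable, beside 3.72% of all genes. The signal Shh, which is made in the hair matrix, had 17.0, 20.2, 17.7, 16.9, 25.6 and 0.859 CPM in replicates 1 to 6. The homeobox gene Msx1 had 27.6 to 40.4 CPM in replicates 1 to 5 and 1.09 in replicate 6. The Wnt effector Lef1 had 43.0 to 56.1 and 7.50, and Hoxc13, a regulator of hair keratin genes, had 46.6 to 72.9 and 8.42. Foxn1 (21.7 to 37.1 CPM) and Bmp4 (highest 34.5 CPM, a ratio of 1.38) were not variable. Without replicate 6, 0 of the 10 were variable, beside 1.08% of all genes. The list score then spanned 0.379 on the log2 scale instead of 2.52.

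Melanocyte genes were divided in the same way. Of 10, 8 were variable, beside 3.72% of all genes. Tyr, the first enzyme of melanin synthesis, had 29.3 to 37.5 CPM in replicates 1 to 5 and 1.83 in replicate 6. Dct had 200.1 to 246 and 38.3, Tyrp1 109 to 139 and 13.7, and the melanosome protein Pmel 114 to 134 and 13.5. The lineage transcription factors Sox10 (7.45 to 11.5 CPM) and Mitf (27.0 to 43.6 CPM) did not differ 4-fold. Without replicate 6, 0 of the 10 were variable, beside 1.08% of all genes. The list score then spanned 0.324 instead of 3.15.

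Genes of cell division were also lowest in replicate 6, by a smaller factor. The proliferation marker Mki67 had 275, 299, 308, 294, 298 and 146 CPM in replicates 1 to 6, and Top2a, the topoisomerase of dividing cells, 222 to 257 and 115. None of the 14 members reached 4-fold, beside 3.72% of all genes, and the median ratio was 2.16. All 14 were lowest in replicate 6, beside 5480 of 14164 tested protein-coding genes. The list score spanned 1.04 on the log2 scale with that library and 0.127 without it.

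Several epidermal lists and the sebaceous list were high in replicate 6, and other epidermal lists were low. Replicate 6 was the highest library in 9 of 9 sebaceous and 9 of 10 suprabasal genes. Over the 14164 tested protein-coding genes it was the highest library for 4543 and the lowest for 5480. It had the highest score of the 6 in the suprabasal (0.680), sebaceous (0.556), cornified envelope (0.382) and basal (0.269) lists. Its scores were below 0 in the stress keratin (-0.751), small proline-rich (-0.579) and stefin A (-0.365) lists, and 2 of 10 basal genes were lowest there. Without it the suprabasal score spanned 0.584 instead of 1.16, and the sebaceous score 0.568 instead of 1.05. The bulge and basal keratin Krt15 had 1822 CPM there against 583 to 904 elsewhere. The stem cell markers did not move as 1 block. Lgr5 was lowest in replicate 6 at 22.0 CPM against 46.5 to 58.7, while Cd34 ran from 108 to 181 with replicate 6 at 158. The collagen score was lowest in replicate 6 (-0.307), and 21 of 35 tested collagens were lowest there. These values all come from 1 library, and what sets it apart was not tested.

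**Figure D3:**
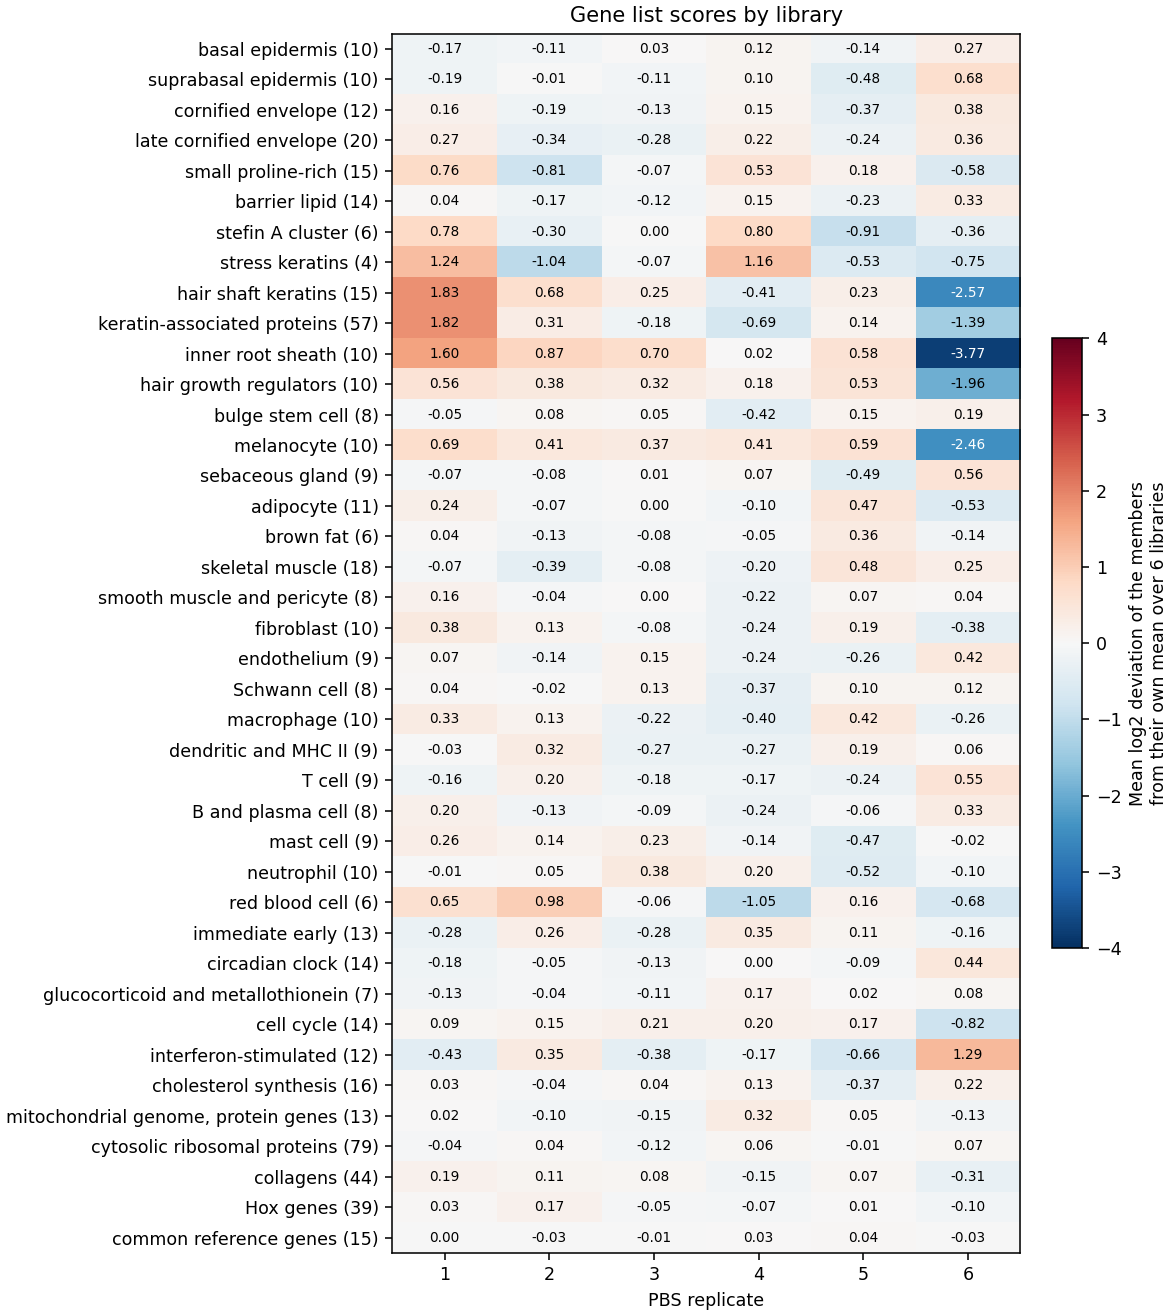
Score of 40 gene lists (rows, number of genes in brackets) in each PBS library (columns): the mean over genes of log2 CPM minus the gene's own mean over the 6 libraries. Replicate 6 is at -3.77 for inner root sheath, -2.57 for hair shaft keratins and -2.46 for melanocyte genes, and at 1.29 for interferon-stimulated genes, while replicates 1 and 4 are at 1.24 and 1.16 for stress keratins.

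A second pattern, in 3 of the 4 stress keratins, did not rest on replicate 6. The stress keratins, which keratinocytes of the interfollicular epidermis make after wounding or in inflammation and which follicles also hold, were high in replicates 1 and 4. Krt6b (chr15:101676023-101680287, GRCm38, minus strand) had 908, 38.2, 151, 799, 65.2 and 136 CPM in replicates 1 to 6. Krt16 had 1523, 326, 660, 1519, 569 and 319, and Krt6a 1692, 400, 721, 1637, 501 and 447. In all 3 genes the same pair of libraries lay above the other 4 without overlap. Krt17, the fourth member, was not variable. It ran from 987 in replicate 6 to 2030 in replicate 1, and the libraries between lay nearer to replicate 1. Most of its range therefore rested on replicate 6. The list score spanned 2.28 on the log2 scale with or without replicate 6.

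Other genes of the stressed epidermis shared this division in part. Repetin (Rptn) had 475 and 353 CPM in replicates 1 and 4 and 117 to 191 in the others. The late envelope gene Lce3d had 31.7 and 23.5 against 5.31 to 13.8. The protease inhibitor Stfa1 had 44.9 and 43.8 against 8.55 to 26.1. In the small proline-rich list 5 of 10 tested genes were variable, beside 3.72% of all genes. Sprr1b had 433 and 394 CPM in replicates 1 and 4 against 117 to 249. Sprr1a was highest in replicate 5 instead, at 993 CPM. Members of the Sprr2, Lce and stefin clusters are near-identical copies, so single-gene counts are uncertain. The 14 Lce1 genes, by contrast, were all highest in replicate 6, beside 4543 of 14164 tested protein-coding genes. Lce1m, 1 of them, was at 919 CPM there against 233 to 512.

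Interferon-stimulated genes were highest in replicate 6 in 12 of 12 members, beside 4543 of 14164 tested protein-coding genes. Of the 12, 5 were variable, beside 3.72% of all genes. Ifit3, an antiviral RNA-binding protein gene, had 12.8, 31.8, 16.3, 19.0, 9.97 and 57.4 CPM in replicates 1 to 6, and Irf7 40.3, 55.8, 35.4, 45.0, 38.9 and 114. The chemokine Cxcl10 had 2.01 to 7.25 CPM and 19.0 in replicate 6. Replicate 5 was the lowest library for 7 of the 12, beside 2585 of 14164 tested protein-coding genes. The list score spanned 1.95, and 1.01 without replicate 6. Without it 0 of the 12 were variable, beside 1.08% of all genes.

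Most red blood cell genes differed in another order of libraries. Replicate 2 was highest in 5 of 6 and replicate 4 lowest in 5 of 6, beside 1190 and 1602 of 14164 tested protein-coding genes. Slc4a1 was the exception, highest in replicate 1 at 7.75 CPM and lowest in replicate 6 at 0.172 CPM. Of 6, 5 were variable, beside 3.72% of all genes, with a median ratio of 4.81. The list score spanned 2.03 on the log2 scale with or without replicate 6. The beta-globin gene Hbb-bs, a near-copy of Hbb-bt, had 32.0, 51.7, 21.6, 10.8, 32.1 and 17.6 CPM, high in replicate 2 and low in replicate 4. The macrophage scavenger receptor Cd163 had 85.5, 59.8, 43.7, 44.4, 123 and 19.0 CPM, and Retnla, a secreted product of alternatively activated macrophages and other cells, had 51.9, 117, 49.5, 9.87, 217 and 20.3. Both were highest in replicate 5, and the macrophage score spanned 0.815 with or without replicate 6. The clock output gene Dbp had 107 CPM in replicate 6 and 29.1 to 49.0 in the others, while the core clock gene Arntl stayed between 27.2 and 31.5. The clock score spanned 0.626, and 0.186 without replicate 6. Time of collection is not in the labels.

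Among genes of at least 10 CPM, the largest highest-to-lowest ratio belonged to Capn8, a calpain protease gene (chr1:182565007-182632352, GRCm38). It had 21.9, 15.4, 14.3, 10.1, 13.5 and 0 CPM, and replicate 1 was at least 127-fold higher than the level that 3 counts would give in replicate 6. The oligopeptide transporter Slc15a2 (chr16:36750177-36784962, GRCm38) followed and did not depend on replicate 6. It had 0.273, 0.435, 5.83, 41.5, 25.8 and 16.7 CPM, a ratio of 114 with or without that library. Replicates 1 and 2 were low and replicates 4, 5 and 6 high.

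Of the other 13 genes among the first 15, 8 were keratins or keratin-associated proteins: Krt25, Krt26, Krt31, Krt72, Krt73, Krt83, Krtap8-1 and Krtap11-1. The remaining 5 were of other kinds. Fbp1, a gluconeogenic enzyme, had 22.7 to 44.1 CPM in replicates 1 to 5 and 0.687 in replicate 6. Cps1, the first enzyme of the urea cycle, had 12.3 to 18.1 and 0.229. The steroid-inactivating Hsd11b2 had 7.07 to 31.5 and 0.515, and the thyroid hormone binding Crym 20.2 to 76.3 and 1.43. Kcnk16, a potassium channel gene, had 7.30 to 19.7 and 0.286. Each was lowest in replicate 6, and Fbp1 and Cps1 differed by 1.94-fold and 1.47-fold without it.

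**Figure D4:**
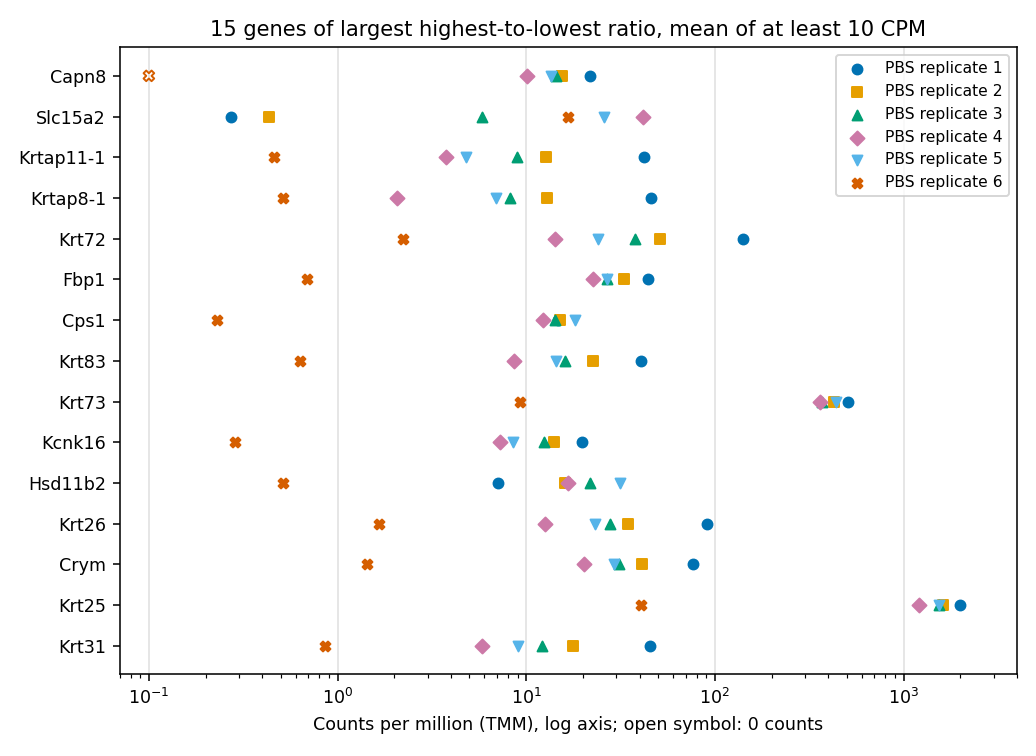
CPM of the 15 genes with the largest highest-to-lowest ratio among genes of at least 10 CPM, in each PBS library (x axis log; the open symbol marks 0 counts). In 14 of the 15 replicate 6 is lowest, and Slc15a2 is the exception, lowest in replicate 1 at 0.273 CPM.

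Outside the 3 hair lists, 65 genes stayed at least 4-fold whichever library was left out. They included Krt6b and Krt16, Retnla, Slc15a2 and Lce3d, described above. Some had the order seen in the hair shaft keratins, highest in replicate 1 and lowest in replicate 6. Among these were Prr9 (380 and 8.65 CPM), Vsig8 (33.0 and 0.687) and Gprc5d (24.9 and 0.229), so being outside the 3 lists does not separate them from that pattern. Mid1, a ubiquitin ligase gene on the X chromosome, had 24.7 and 34.7 CPM in replicates 1 and 3 and 4.64 to 7.67 in the others, again without overlap. Skint7, of a family expressed in skin and thymus, ran from 6.35 in replicate 1 to 53.7 CPM in replicate 6. Prr9, Vsig8, Gprc5d, Mid1 and Skint7 were picked after their values were seen.

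Variable genes were frequent in 4 known gene clusters, although most of the 569 variable genes lay elsewhere. In the type I keratin and keratin-associated protein region (chr11:99232761-100269871, GRCm38) 35 of 44 tested genes were variable, 33 of them lowest in replicate 6. In the type II keratin region (chr15:101347444-102032027) 17 of 24 were, and in the keratin-associated protein region of chromosome 16 (chr16:88610705-89571183) 5 of 5. The epidermal differentiation region (chr3:90511034-93564643) had 18 of 65. All 4 shares lay above the 3.72% of all tested genes. Without replicate 6 the counts were 28 of 44, 11 of 24, 5 of 5 and 14 of 65, beside 1.08% of all tested genes. The windows were drawn around listed families after the values were seen, so their shares restate the family counts by position.

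The hair keratin Krt35 was set against 1 marker of each of 11 other compartments over the 6 libraries on the log2 scale. Krt35 was chosen after the data were examined, so the p-values below are descriptive and not an independent test. In exact two-sided permutation tests over 720 orders, with Benjamini-Hochberg adjustment over the 11 relations, Krt71 gave Pearson r = 0.998 (p = 0.00417, adjusted p = 0.0229) and Spearman rho = 0.943 (p = 0.0167, adjusted p = 0.0917). Col1a1 gave r = 0.816 and rho = 0.943 with the same p and adjusted p for each. Without replicates 1 and 6, the libraries farthest from the median of Krt35, r was 0.806 for Krt71 and 0.818 for Col1a1 over 4 libraries, given without a test. Without replicate 6 alone they were 0.891 and 0.901. Tyrp1 had r = 0.994 (exact permutation p = 0.0417, adjusted p = 0.148), which went to 0.0589 without those libraries and so rests on them. In these exact permutation tests, Krt71 and Col1a1 had an adjusted p under 0.05 by r but not by rho. Tyrp1 and the remaining 8 markers were above 0.05 by both. Mki67 (r = 0.982, adjusted p = 0.182) and Adipoq (r = 0.347, adjusted p = 0.376) had a positive r. The others were negative: Dbp -0.899, Cd3e -0.896, Lor -0.890, Scd1 -0.839, Krt10 -0.798 and Acta1 -0.564. Without replicate 6 alone, r went from 0.994 to 0.363 for Tyrp1, from 0.982 to -0.580 for Mki67 and from 0.347 to 0.406 for Adipoq. The negative values went to 0.0253 for Dbp, 0.213 for Cd3e, 0.0946 for Lor, -0.153 for Scd1, -0.238 for Krt10 and 0.00310 for Acta1.

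At the other end, most ribosomal protein genes were steady. Of 78 tested ribosomal protein genes, 72 were steady, beside 34.5% of all genes, and 0 were variable. The median ratio was 1.18. Of 15 genes often used as references, 7 were steady (46.7%, beside 34.5% of all genes) and 0 were variable, beside 3.72%. Their median ratio was 1.31. Sdha, a subunit of succinate dehydrogenase, differed 1.13-fold (189 to 213 CPM). Gapdh differed 1.39-fold, Actb 1.35-fold and B2m 1.90-fold, with B2m highest in replicate 6 at 1449 CPM against 762 to 978.

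The steadiest gene of at least 10 CPM was Chd8, a chromatin remodeler gene, at 118 to 120.3 CPM, a ratio of 1.02. Mfap3, Yipf5, the long non-coding RNA Tug1, Zfp266, Rnf8, Upf3a, Nectin4, Zfp869 and Tm9sf1 followed, all at 1.05 or less. These were selected as the smallest of many ratios, so their values are a description. For Chd8, replicate 6 at 119.4 CPM lay inside the range of the others.

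**Figure D5:**
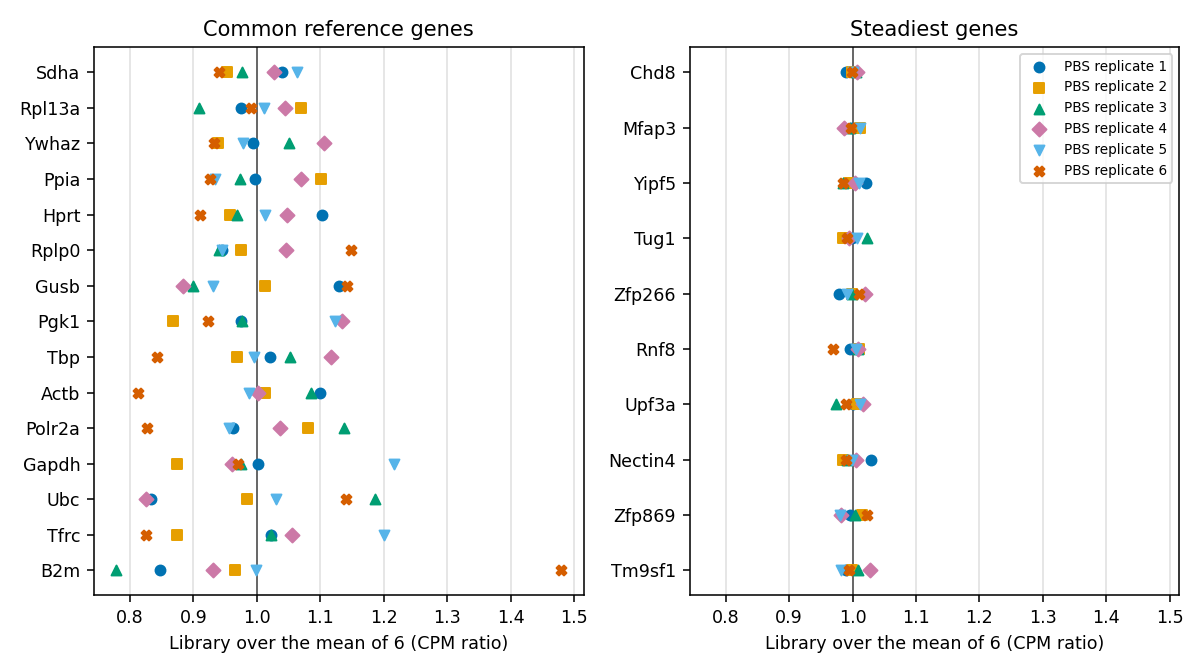
CPM of each PBS library divided by the mean of the 6, for 15 reference genes (left) and the 10 steadiest genes of at least 10 CPM (right). B2m in replicate 6 lies farthest from 1, and the steadiest genes lie close to 1 in all libraries.

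Hox genes keep a record of position along the body axis in skin. Of 39, 29 passed 1 CPM, and of these 1, Hoxc13, was variable, beside 3.72% of all genes. Hoxa7 averaged 67.6 CPM and was highest in replicate 6 at 106 against 51.6 to 68.7. Hoxd8 went the other way, at 13.5 CPM in replicate 6 against 30.8 to 40.6. The remaining Hox genes above 1 CPM differed under 4-fold, and the Hox score spanned 0.268 on the log2 scale.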

How the data were processed

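Total RNA of whole mouse skin was sequenced, and the deposited files hold raw counts per gene for each library. Per the submitters' processing notes, the authors used STAR, featureCounts and the genome build GRCm38.p5. For versions, annotation release, strand setting and reads with several matches, the entry is: not given in the sources used here. Per the labels' protocols, RNA came from homogenised skin sections kept in RNAlater.

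Of 41605 gene identifiers, 41519 matched GENCODE M21 (GRCm38), which gave symbols, positions and exon lengths, and 86 did not. Counts were scaled by TMM with edgeR 4.0.16 in R 4.3.3, with DESeq2 1.42.0 size factors as an alternative. CPM per kilobase used the union of annotated exons. Tested genes had a mean of at least 1 CPM, and ratios between libraries used a prior count of 2. A gene was called variable at 4-fold or more between the highest and lowest library, and steady under 1.3-fold. Dispersions came from an intercept-only edgeR fit. No test between groups was possible with 1 group. No 2 libraries matched within sampling noise (chi-square per gene 8.89 to 83.5). On simulated counts for this comparison over 15313 genes, 100% of 200 genes changed 8-fold in 1 library were called at 4-fold, with 3 unchanged genes called. The simulation gave every gene a dispersion of 0.02, below the square of the common coefficient of variation of 19.5% with all 6 libraries. The 3 calls therefore do not estimate how many of the 569 variable genes differ by noise.

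The text names the 15 genes of highest level per kilobase, the 10 of largest share, the 15 most variable and 10 steadiest of at least 10 CPM (predicted genes, clones and pseudogenes passed over), the markers of the relations, and leading members of each of 43 gene lists. In the list of reference genes, 1 gene is not reported here. Further names are said to have been chosen after their values were seen. The members and lists were chosen with earlier results of these data known. The hair keratin first picked for the relations was not analysed here, and Krt35 took its place after the data were examined. Counts of variable genes by list, gene cluster and promoter without replicate 6 were also added after the data were examined. Promoters came from RefSeq (GRCm38.p6). The number of sample columns without a mapping was 0.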

Additional observations from a re-analysis of the deposited data

Results flagged for a closer look

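A library was singled out where its gap to the nearest of the others, divided by the range of all 6, was above Dixon's critical value for 6 values, on the log2 scale. Over 40 lists and 40 genes, 7 lists and 11 genes passed, and 5 of these lists and all 11 genes pointed to replicate 6. For groups chosen without sight of the values, chance passes about 1 in 20. That rate does not apply to 7 of the 11 genes (Capn8, Fbp1, Cps1, Krt73, Kcnk16, Crym and Krt25), which were checked because their highest-to-lowest ratios were the largest. Nor does it apply to Krt35, which was chosen after the data were examined. The lists and their members were chosen with earlier results of these data known, so the rate cannot be relied on for them. Lists and genes of the follicle are also not independent of each other.

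Replicate 6 was the low library in the scores of the inner root sheath (0.706), hair growth regulator (0.849), melanocyte (0.897) and cell cycle (0.878) lists. It was the high library in the circadian clock list (0.702). The brown fat score had replicate 5 as its high library (0.627), although Ucp1 was near 0, and the Schwann cell score had replicate 4 as its low library (0.694).

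Among single genes, replicate 6 was the low library for the keratins Krt71 (0.851), Krt25 (0.871), Krt73 (0.914) and Krt35 (0.917). The same held for Tyrp1 (0.896), Mki67 (0.845), Capn8 (0.859), Fbp1 (0.836), Cps1 (0.905), Kcnk16 (0.751) and Crym (0.661).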

How the results depend on the processing

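Levels depended on the scale. Per kilobase, the 10 leading genes held 9.15% of the summed level, 494 genes held 50%, and keratins took 4.86%, ribosomal proteins 7.23%, collagens 0.424% and skeletal muscle 1.66%. Without mitochondrial genes the top 10 held 4.38%. A mean of at least 5 CPM gave 284 variable genes, and no filter beyond 1 count gave 1664. Leaving out each library in turn gave 166 to 567 variable genes, 5629 to 9204 steady genes, 35.8% to 71.9% of variance on the first component and a common coefficient of variation of 12.2% to 21.2%. The score ranges became 2.25 to 4.41 for hair shaft, 1.58 to 5.37 for inner root sheath, 0.324 to 3.15 for melanocyte and 1.01 to 1.95 for interferon-stimulated genes, each lowest without replicate 6. Without that library 7 of the 15 most variable genes fell under 4-fold (Capn8, Fbp1, Cps1, Krt73, Kcnk16, Crym and Krt25). The other 132 recomputed summary values stayed within the replicate spread or within 1.5 times of the reported value. No paired analysis was possible because only 1 group was analysed. Genes near 1 CPM, the paralog clusters and the mitochondrial genes at 0 are limited by depth or counting.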
